A study of Danio rerio with 6 samples.

Results

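Apolipoproteins are the protein components of lipoprotein particles, which carry cholesterol, phospholipid and triglyceride between tissues. The members described here in the regenerating zebrafish ventricle are 6 of their genes: apoc1, apoeb, apoea, apoa1a, apoa1b and apoa2. They were taken by symbol, with the starting gene apoc1 selected on its far higher level in tbx20-overexpressing hearts and the other 5 added as its relatives. All 6 were found, each as 1 row, among the 31701 genes of the deposited table. Only 2 of them, apoc1 and apoeb, had enough counts to pass the filter on low counts, which kept 15686 genes for testing.

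RNA was sequenced from the ventricular apex of adult AB zebrafish at 7 days post amputation (dpa), with 3 libraries for each of 2 groups. Both groups received doxycycline (DOX) every day from the day before the injury, and both carried the tbx20 responder transgene Tg(TRE3G:tbx20-E2A-mCherry) with its EGFP lens marker. The control group carried that responder alone. The tbx20-overexpressing group also carried cmlc2:TetON-3G with an mCherry lens marker, so that the DOX-dependent activator was driven by the promoter of cmlc2, a myosin light chain gene of cardiomyocytes (CMs). Each library was a pool of hearts, with 6 hearts in replicate 1 and 8 in replicates 2 and 3 of either group, and the study describes the 3 as independent biological replicates. Because the tissue holds many cell types, fewer cells of a type and less RNA per cell cannot be told apart.

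In vertebrates, APOE is the main ligand by which receptors of the low density lipoprotein (LDL) receptor family take up lipoprotein remnants, and it is made by liver, by macrophages and by glia as well as in other tissues. APOC1 is a small exchangeable apolipoprotein that, in mammals, hinders receptor uptake of remnants and inhibits cholesteryl ester transfer protein. APOA1 and APOA2 are the main structural proteins of high density lipoprotein (HDL) and are made chiefly by liver and intestine. Zebrafish have a pair of genes for APOE (apoea and apoeb) and a pair for APOA1 (apoa1a and apoa1b).

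The libraries held from 12993988 to 17754483 gene counts. The cardiomyocyte markers were abundant in every library, with summed levels from 55764 to 148610 CPM (counts scaled by library size with TMM factors). The driven gene tbx20 was measured at 41.3, 8.59 and 20.3 CPM in control replicates 1, 2 and 3 and at 133, 19.0 and 37.2 CPM in tbx20-overexpressing replicates 1, 2 and 3. It was higher in the overexpressing library of each of the 3 like-numbered pairs, although the groups overlapped. Its log2 fold change was 1.43 (SE 0.75, edgeR adjusted p = 0.649), and 1.24 (SE 0.19, edgeR adjusted p = 0.0479) with the replicate number as a block. Without tbx20-overexpressing replicate 1 the unpaired value was 0.26.

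apoeb was by far the most abundant of the 6 genes and the only relative of apoc1 with enough counts to be tested. Its level was 3.94-fold higher in tbx20-overexpressing hearts, a difference that passed the unadjusted call but not the adjustment over all genes. The apoa1a, apoa1b, apoa2 and apoea transcripts each had at most 40 counts summed over either group. Together the 6 genes received 9671 counts over the 6 libraries. Of these, 9293 belonged to apoeb, 290 to apoc1 and 88 to the other 4 genes.

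apoc1 (ENSDARG00000092170, exonic length 783 bases) had 10, 0 and 21 counts in control replicates 1, 2 and 3 and 55, 127 and 77 counts in tbx20-overexpressing replicates 1, 2 and 3. In FPKM, which scales counts by exonic length and library total, this was 0.97, 0 and 1.55 against 5.12, 11.58 and 7.57. The 3 tbx20-overexpressing libraries all lay above the 3 control libraries, and replicate 2 held both extremes, with no counts in control and the highest level in the tbx20-overexpressing group. The absence of counts in control replicate 2 allows a level of up to 0.216 FPKM, taking 3 counts as the floor and covering counting error only. The means were 0.84 ± 0.783 FPKM (SD, n = 3) and 8.09 ± 3.26 FPKM (SD, n = 3). The fitted log2 fold change was 3.01 (SE 0.83), or 8.06-fold, which placed apoc1 at rank 17 of the 15686 tested genes by fold change. Since this change selected the gene, it is given as a description without a test. Even so, apoc1 remained a gene of modest abundance, at rank 7880 of 31701 by its mean FPKM over the 6 libraries.

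apoeb (ENSDARG00000040295, exonic length 2116 bases) encodes an APOE ortholog. It had 301, 219 and 1395 counts in control replicates 1, 2 and 3 and 1073, 4200 and 2105 counts in tbx20-overexpressing replicates 1, 2 and 3. In FPKM the values were 10.76, 5.83 and 38.05 in control against 36.95, 141.75 and 76.56 in tbx20-overexpressing hearts. Control replicate 3 stood well above the other control libraries and slightly above tbx20-overexpressing replicate 1, so the groups overlapped by that single pair of libraries. The means were 18.2 ± 17.4 FPKM (SD, n = 3) in control against 85.1 ± 52.9 FPKM (SD, n = 3) in tbx20-overexpressing hearts. The log2 fold change was 1.98 (SE 0.65), or 3.94-fold, with an edgeR unadjusted p of 0.0153 and a Benjamini-Hochberg adjusted p of 0.398 over all tested genes. By mean FPKM apoeb ranked 1012 of 31701 genes, and by fold change 67 of 15686.

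**Figure D1:**
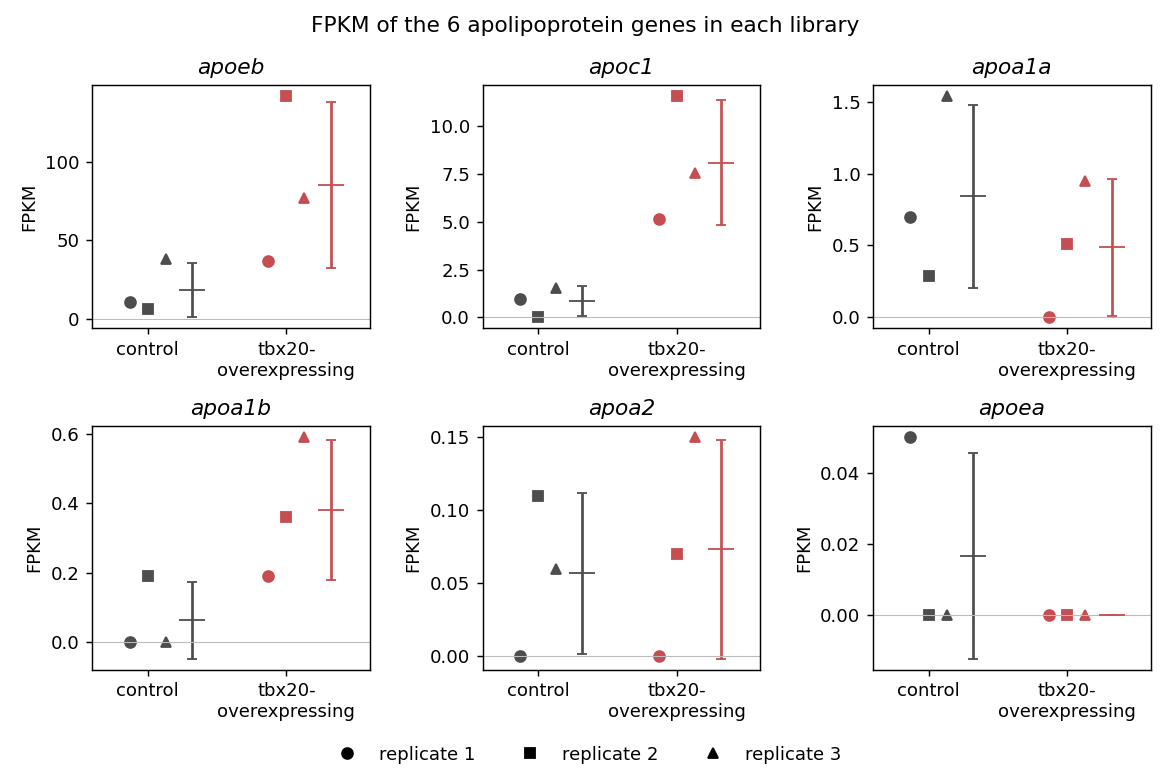
FPKM of each of the 6 apolipoprotein genes (vertical axis, from 0, with its own scale in each panel) in control (grey) and tbx20-overexpressing (red) libraries; symbols mark replicates 1, 2 and 3, and the dash with its bar is the mean ± SD (n = 3). For apoc1 the groups are apart, for apoeb they overlap only at control replicate 3 (38.05) and tbx20-overexpressing replicate 1 (36.95), and the other 4 genes lie at or below 1.54 FPKM.

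Genes were called at an unadjusted p under 0.05 with an absolute log2 fold change above 0.5. By that rule 513 of the 15686 tested genes were higher in tbx20-overexpressing hearts (3.27%) and 872 were lower (5.56%). The only member tested as a relative, apoeb, was called higher. With counts scaled by library totals alone the split turned to 1843 higher and 257 lower, and the median log2 fold change of all genes moved from 0.035 to 0.38. apoeb had a log2 fold change of 2.22 under that scaling and apoc1 one of 3.27. At an adjusted p under 0.05, edgeR called 0 of the 15686 genes (0%), although 1448 had an unadjusted p under 0.05 and DESeq2 called 239. With DESeq2 the log2 fold change of apoeb was 1.97 with an adjusted p of 0.0478, and over all alternatives its adjusted p ranged from 0.0478 to 0.716.

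Samples with the same replicate number deviated together, so both genes were also compared within pairs, on log2(CPM + 0.5). In pair 1 apoc1 was higher by 1.74 and apoeb by 1.61 in the tbx20-overexpressing library. The differences were widest in pair 2, at 4.16 for apoc1 and 4.04 for apoeb. The apoc1 value of pair 2 depends on the added 0.5, because control replicate 2 had no counts of it. In pair 3 apoc1 was higher by 1.57 but apoeb by only 0.63. apoeb was thus higher in 3 of 3 pairs. For apoc1 the same count was fixed by the selecting values, in which the groups do not overlap. With the replicate number as a block, the log2 fold change of apoeb was 2.04 (SE 0.59, edgeR unadjusted p = 0.00874, adjusted p = 0.13) and that of apoc1 was 3.03 (SE 0.78). The same fit called 949 genes higher (6.05%) and 1264 lower (8.06%), and 84 genes at an adjusted p under 0.05 (0.536%), apoeb not among them.

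The size of the apoeb difference rested on single libraries. Without tbx20-overexpressing replicate 2, the highest library, its log2 fold change fell to 1.31 and the unadjusted edgeR p was 0.0644. Without control replicate 1 the value was 1.73 with an unadjusted edgeR p of 0.0539, and in both cases the call was lost. Without control replicate 3, the highest control library, the difference was 2.95. For apoc1 the values ranged from 2.44 without control replicate 2 to 3.78 without control replicate 3. apoeb had a positive fold change under each setting tried, while the sign of apoc1 follows from the values that selected it.

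**Figure D2:**
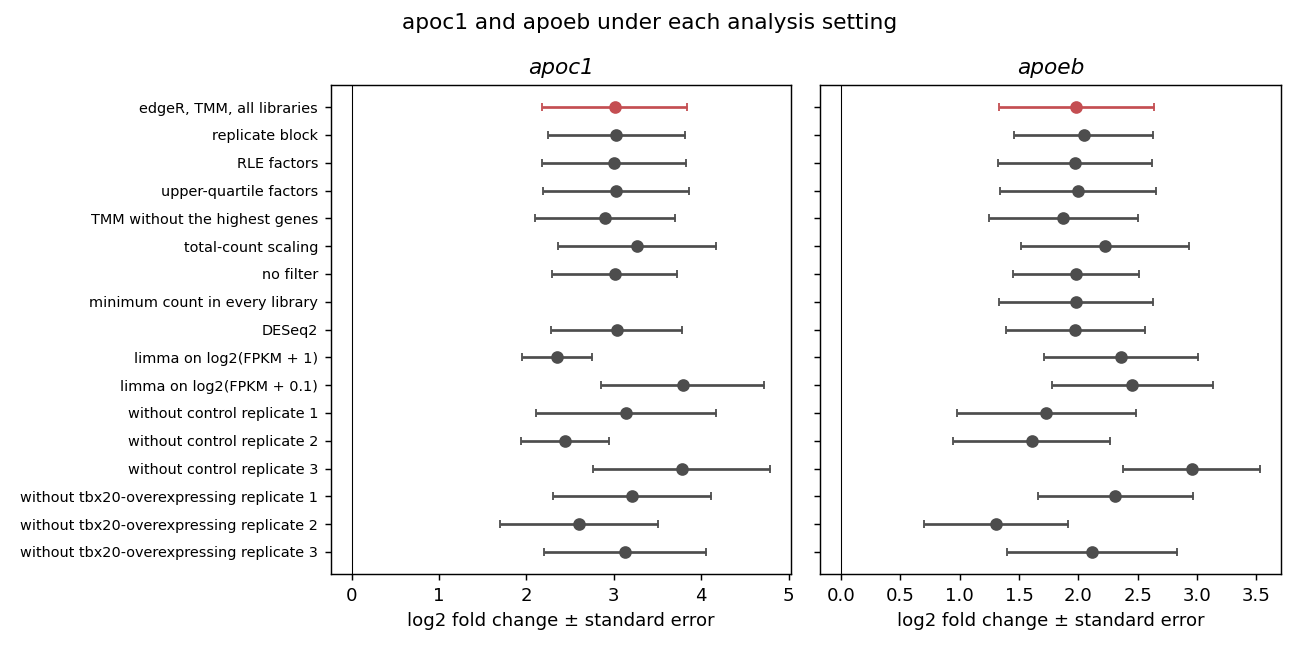
Log2 fold change (horizontal axis, tbx20-overexpressing over control) of apoc1 and apoeb under each analysis setting, with the standard error as the bar; the red point is edgeR with TMM factors and all 6 libraries. apoc1 has no point under a minimum count in every library because control replicate 2 held 0 counts, and apoeb runs from 1.31 without tbx20-overexpressing replicate 2 to 2.95 without control replicate 3.

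The proportion of apoc1 to apoeb was also compared within libraries. For each 1000 counts of apoeb there were 33.2 counts of apoc1 in control replicate 1, 0 in control replicate 2 and 15.1 in control replicate 3. The tbx20-overexpressing libraries gave 51.3, 30.2 and 36.6. The ranges of the groups overlapped, although the value was higher in the tbx20-overexpressing library of each like-numbered pair. Since the counts of apoc1 selected it, this proportion is a description without a test. Per length, apoeb exceeded apoc1 by 11.1-fold and 24.5-fold in control replicates 1 and 3 and by 7.22-fold, 12.2-fold and 10.1-fold in tbx20-overexpressing replicates 1, 2 and 3. apoeb took from 93.8 to 96.8% of the counts of the 6 genes in every library, and the total of the 6 genes was 321, 230 and 1443 counts in control replicates 1, 2 and 3 against 1131, 4341 and 2205 in tbx20-overexpressing replicates 1, 2 and 3.

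The other APOE gene was barely detected. apoea (ENSDARG00000102004, exonic length 1513 bases) had 1 count in control replicate 1 and none in the other 5 libraries. A count of 0 allows up to between 0.112 and 0.153 FPKM in these libraries, and no fold change is given for a gene at this floor. apoeb was thus the APOE transcript detected at an appreciable level in both groups. How the counting treated reads shared by paralogs is not given in the sources used here.

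Of the 2 APOA1 genes, apoa1a (ENSDARG00000012076, exonic length 974 bases) had 9, 5 and 26 counts in control replicates 1, 2 and 3 and 0, 7 and 12 in tbx20-overexpressing replicates 1, 2 and 3. The groups overlapped, control replicate 3 was highest and tbx20-overexpressing replicate 1 had no counts. In FPKM this was 0.843 ± 0.637 against 0.487 ± 0.475 (SD, n = 3). Without a filter on low counts, edgeR gave a log2 fold change of -1.13 (SE 0.88, adjusted p = 0.825). Counts summed over each group and scaled by the summed library totals were 0.828 CPM (95% exact Poisson interval 0.592 to 1.13) in control against 0.467 CPM (0.281 to 0.729) with tbx20 overexpression, intervals that cover counting error only.

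apoa1b (ENSDARG00000101324, exonic length 1175 bases) had 0, 4 and 0 counts in control replicates 1, 2 and 3 and 3, 6 and 9 in tbx20-overexpressing replicates 1, 2 and 3. It was thus near its floor in control, and control replicate 2 lay within the range of the tbx20-overexpressing group. The levels were 0.0633 ± 0.11 FPKM and 0.38 ± 0.201 FPKM (SD, n = 3). The fit without a filter gave a log2 fold change of 1.91 (SE 1.16, edgeR adjusted p = 0.797). Summed over each group and scaled by the summed totals, its counts were 0.0828 CPM (95% exact Poisson interval 0.0226 to 0.212) in control against 0.442 CPM (0.262 to 0.699) with tbx20 overexpression. These intervals do not overlap, but they cover counting error only and not the spread between libraries. apoa1b was higher in the tbx20-overexpressing library of 3 of 3 pairs and apoa1a of 1 of 3, and neither difference passed the test. apoa2 (ENSDARG00000015866, exonic length 1020 bases) had 0, 2 and 1 counts in control against 0, 1 and 2 in tbx20-overexpressing libraries, at which no difference is detectable.

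Ordered by mean FPKM, apoeb led in both groups and no other member reached its range. In control hearts apoa1a (0.843) and apoc1 (0.84) followed at nearly the same level, then apoa1b (0.0633), apoa2 (0.0567) and apoea (0.0167), and from apoa1a down the ranges of all neighbours in the order overlapped. In tbx20-overexpressing hearts apoc1 stood alone in second place at 8.09 FPKM. It was followed by apoa1a (0.487) and apoa1b (0.38), whose ranges overlapped, then by apoa2 (0.0733) and apoea (0), whose ranges overlapped too. The place of apoc1, level with apoa1a in control and clear of it in tbx20-overexpressing hearts, was the main change in this order, and it follows from the value that selected the gene.

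Most genes of the wider apolipoprotein family had too few counts in this tissue to be tested. Of 24 rows found for the family, members included, 7 passed the filter. Apart from the 6 members, the 13 genes that did not pass had at most 19 counts over all libraries, among them apoba and apobb.1, which encode the APOB backbone of the large lipoproteins. The 5 other genes tested were clu, apof, apol1, apool and apoob. Leaving out apoc1, which was chosen for its change, 1 of the 6 tested genes was called higher and 1 lower. The shares over all tested genes were 3.27% and 5.56%. The median log2 fold change of the 6 was -0.03, beside 0.035 over all genes.

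clu encodes clusterin (APOJ), a secreted chaperone that also binds lipoproteins, and was the most abundant of these genes. It had 249, 580 and 280 CPM in control replicates 1, 2 and 3 and 215, 232 and 361 CPM in tbx20-overexpressing replicates 1, 2 and 3, with a log2 fold change of -0.46 (SE 0.37, edgeR adjusted p = 0.813). The groups overlapped, and without control replicate 2 the value was 0.023. apof, named for a lipid transfer inhibitor protein in mammals, had 13.8, 16.3 and 33.0 CPM in control against 15.8, 28.1 and 48.9 CPM in tbx20-overexpressing libraries. The tbx20-overexpressing library was the higher one in 3 of 3 pairs, with a log2 fold change of 0.55 (SE 0.45, edgeR adjusted p = 0.818), or 0.52 with the replicate block (SE 0.17, edgeR unadjusted p = 0.0184, adjusted p = 0.18), by which it was called higher. Without tbx20-overexpressing replicate 3 the unpaired value was 0.047.

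apool was the family gene called lower, at 22.5, 37.1 and 24.5 CPM in control against 15.8, 13.7 and 15.3 CPM in tbx20-overexpressing replicates 1, 2 and 3. All control libraries lay above all tbx20-overexpressing ones, as they did for 8.27% of all tested genes, while 6.45% lay apart in the other direction. The log2 fold change was -0.91 (SE 0.24, edgeR unadjusted p = 0.00508, adjusted p = 0.315). With library totals alone it was -0.52 with an unadjusted edgeR p of 0.0609. Despite its name, APOOL in human cells is a subunit of the mitochondrial complex that shapes cristae. apoob, a relative of apool, gave 0.25 (SE 0.40), and -0.21 without tbx20-overexpressing replicate 2. apol1 gave -0.31 (SE 0.21), with a sign that turned to 0.032 under library totals, and neither was called.

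The gene order around the members was read from the zebrafish assembly GRCz12tu, a different build from that of the counts and used for names and order only. There apoeb and apoc1 are immediate neighbours in a cluster that runs apoa4b.3, si:dkey-7f3.14, apoa4b.2, apoeb, apoc1, an unmatched long noncoding RNA, apoc4, apoa2 and apoc2. Within it, apoeb and apoc1 were the only genes tested. apoa4b.3, si:dkey-7f3.14, apoa4b.2 and apoc4 had 0 counts in all 6 libraries, apoc2 had 2 counts and apoa2 had 6. In mammals APOC2 activates lipoprotein lipase and APOC4 is a minor exchangeable apolipoprotein. The counting with respect to strand is not given in the sources used here, so reads of overlapping transcripts in such a cluster cannot be told apart.

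Of 26 genes other than members within 3 places of a member, 16 could be matched by symbol and 9 were tested. edgeR called 0 of the 9, beside 3.27% of all tested genes called higher and 5.56% lower. Of the 9, 0 had an unadjusted p under 0.05, and log2 fold changes ran from -0.43 to 0.81. apoea lies beside apoa4a, which had 5 counts. With the replicate block, pip5k1aa near apoea reached the unadjusted call at 0.55 (edgeR unadjusted p = 0.045, adjusted p = 0.28). bcam, which borders the cluster beyond apoc2, gave 0.02 (SE 0.28).

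The profile most like that of apoc1 over the 6 libraries was that of apoeb. Likeness was measured as the root mean square difference between log2(CPM + 0.5) values, each centred on the mean of its gene, among 10684 genes with at least 5 CPM on average. The difference was 0.495 for apoeb, followed by ftr93 (0.588), cuedc1b (0.589), si:dkey-26m3.3 (0.662) and zgc:154125 (0.699). This is a description over 6 libraries that share their group difference with the value that selected apoc1. Genes with a similar group difference come first by construction.

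The measure is mutual, so apoc1 lay at the same 0.495 from apoeb, although its mean level was under the 5 CPM minimum. Among genes above that minimum, the nearest to apoeb were fam234b (0.551), leap2 (0.606), ftr93 (0.688), zgc:154125 (0.736) and thbs4b (0.76). leap2 encodes a liver-expressed antimicrobial peptide in mammals, and ftr93 belongs to the fish-specific finTRIM family of TRIM proteins. zgc:154125 had 4.53, 5.65 and 6.25 CPM in control against 16.6, 27.6 and 13.8 CPM in tbx20-overexpressing replicates 1, 2 and 3. Its groups did not overlap, as for 6.45% of all tested genes in the higher direction. Its log2 fold change was 1.82 (SE 0.31). Genes named here were picked by likeness to profiles that hold the group difference. Their changes and the separation of their groups are therefore descriptions without a test. thbs4b, which encodes a thrombospondin of the extracellular matrix, followed apoeb into tbx20-overexpressing replicate 2 (135 CPM) and control replicate 3 (45.4 CPM). It did not do so in tbx20-overexpressing replicate 1 (11.1 CPM). Its groups overlapped, with a log2 fold change of 1.37 (SE 0.82).

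**Figure D3:**
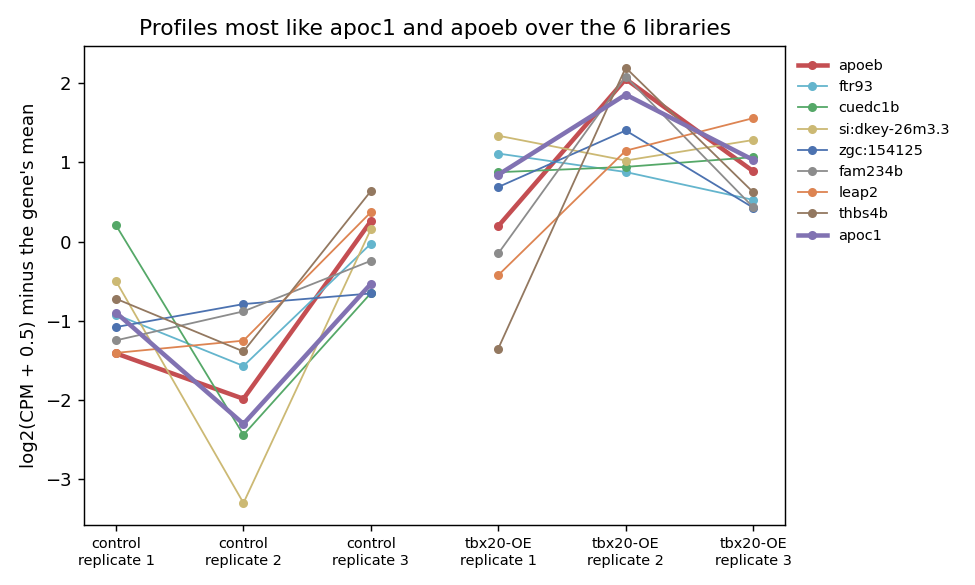
Centred log2(CPM + 0.5) profiles (vertical axis) of apoc1, apoeb and the genes most like either over the 6 libraries (horizontal axis); each line is 1 gene, broken between the groups, and the order of replicates within a group carries no meaning. apoc1 and apoeb both have their lowest value in control replicate 2 and their highest in tbx20-overexpressing replicate 2.

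Most receptor and lipid-handling genes did not pass the test, as held for most of all tested genes (3.27% were called higher and 5.56% lower). Among lipoprotein receptors and their helpers, 22 of 29 rows were tested. Of these, 1 was called higher (4.55%) and 1 lower (4.55%), and the median log2 fold change was 0.115. With the replicate block, 3 were called higher and 2 lower, beside 6.05% and 8.06% of all tested genes. lrpap1, which encodes the chaperone of LDL receptor family proteins, had 29.6, 34.1 and 38.4 CPM in control against 48.0, 45.9 and 52.9 CPM in tbx20-overexpressing libraries. The groups did not overlap, which in this direction held for 6.45% of all tested genes. The log2 fold change was 0.52 (SE 0.18, edgeR unadjusted p = 0.0195, adjusted p = 0.415). Its call was lost without control replicate 1 (0.44) and without tbx20-overexpressing replicate 3 (0.46).

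lrp8, whose mammalian product is the receptor APOER2 for APOE and reelin, had 15.2, 12.7 and 17.6 CPM in control against 10.4, 8.03 and 8.08 CPM in tbx20-overexpressing libraries. Again the groups did not overlap, as for 8.27% of all tested genes in the lower direction. The log2 fold change was -0.78 (SE 0.23, edgeR unadjusted p = 0.00951, adjusted p = 0.354). With library totals alone it was -0.47 and was not called. Under the replicate block, sorl1 (0.58), stab2 (0.77) and ldlra (-1.14), a gene for the LDL receptor, were called as well, all with groups that overlapped. The receptor genes lrp1ab and lrp1aa, which encode co-orthologs of the large endocytic receptor LRP1, gave 0.40 (SE 0.22) and 0.29 (SE 0.21), chosen here after their values were seen.

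For lipid efflux and HDL remodelling, 14 of 22 rows were tested, with a median log2 fold change of 0.10. Of these, 1 was called higher and 1 lower (7.14% each, beside 3.27% and 5.56% of all tested genes). pltp, which encodes the phospholipid transfer protein that moves phospholipid onto HDL, had 10, 15 and 47 counts in control against 65, 93 and 110 counts in tbx20-overexpressing replicates 1, 2 and 3. In CPM this was 0.824, 1.13 and 2.69 against 4.64, 6.17 and 6.49, without overlap, as for 6.45% of all tested genes in the higher direction. Its log2 fold change was 1.87 (SE 0.47, edgeR unadjusted p = 0.00366, adjusted p = 0.291), and it was called under every alternative, with adjusted p-values from 0.0217 to 0.66.

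nceh1a, whose mammalian counterpart hydrolyses cholesteryl ester in macrophages, went the other way. It had 15.2, 10.92 and 17.0 CPM in control against 4.07, 3.72 and 6.08 CPM in tbx20-overexpressing libraries. Every control library lay above every tbx20-overexpressing one, as for 8.27% of all tested genes. The log2 fold change was -1.63 (SE 0.30, edgeR unadjusted p = 0.000464, adjusted p = 0.183), and -1.64 with the replicate block (edgeR adjusted p = 0.0315), where it was the only gene of the list at an adjusted p under 0.05. soat1, which encodes an enzyme that esterifies cholesterol, was added by the block as higher (1.07, edgeR adjusted p = 0.169), with overlapping groups. abca1a, an ortholog of the transporter that lipidates APOA1, gave 0.37 (SE 0.27) and nr1h3, the LXR receptor gene, 0.06 (SE 0.20), named after their values were seen.

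The median log2 fold change over the 13 of 15 lipoprotein assembly and lipase rows tested was 0.09. Of these, 1 was called higher (7.69%) and none lower, beside 3.27% and 5.56% of all tested genes. The gene was lipea, for hormone-sensitive lipase, at 2.55, 3.09 and 3.10 CPM in control against 3.998, 6.30 and 5.25 CPM in tbx20-overexpressing libraries. Its log2 fold change was 0.83 (SE 0.31, edgeR unadjusted p = 0.028, adjusted p = 0.459), and the call was lost without control replicate 1 (0.75), control replicate 3 (0.88), tbx20-overexpressing replicate 2 (0.66) or tbx20-overexpressing replicate 3 (0.81). None of the 23 tested genes of cholesterol synthesis (26 rows) was called in either direction by edgeR, unpaired or with the block. Over all tested genes 3.27% were called higher and 5.56% lower unpaired, and 6.05% and 8.06% with the block. Of the 23 genes, 0 had an unadjusted p under 0.05 in either edgeR fit, and the median was 0.085. srebf2, the sterol-sensing transcription factor gene, averaged 40.0 ± 4.80 CPM in control against 36.8 ± 4.34 CPM in tbx20-overexpressing hearts (SD, n = 3). hmgcrb, for an HMG-CoA reductase, averaged 40.4 ± 4.90 and 33.9 ± 6.16 CPM (SD, n = 3).

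**Figure D4:**
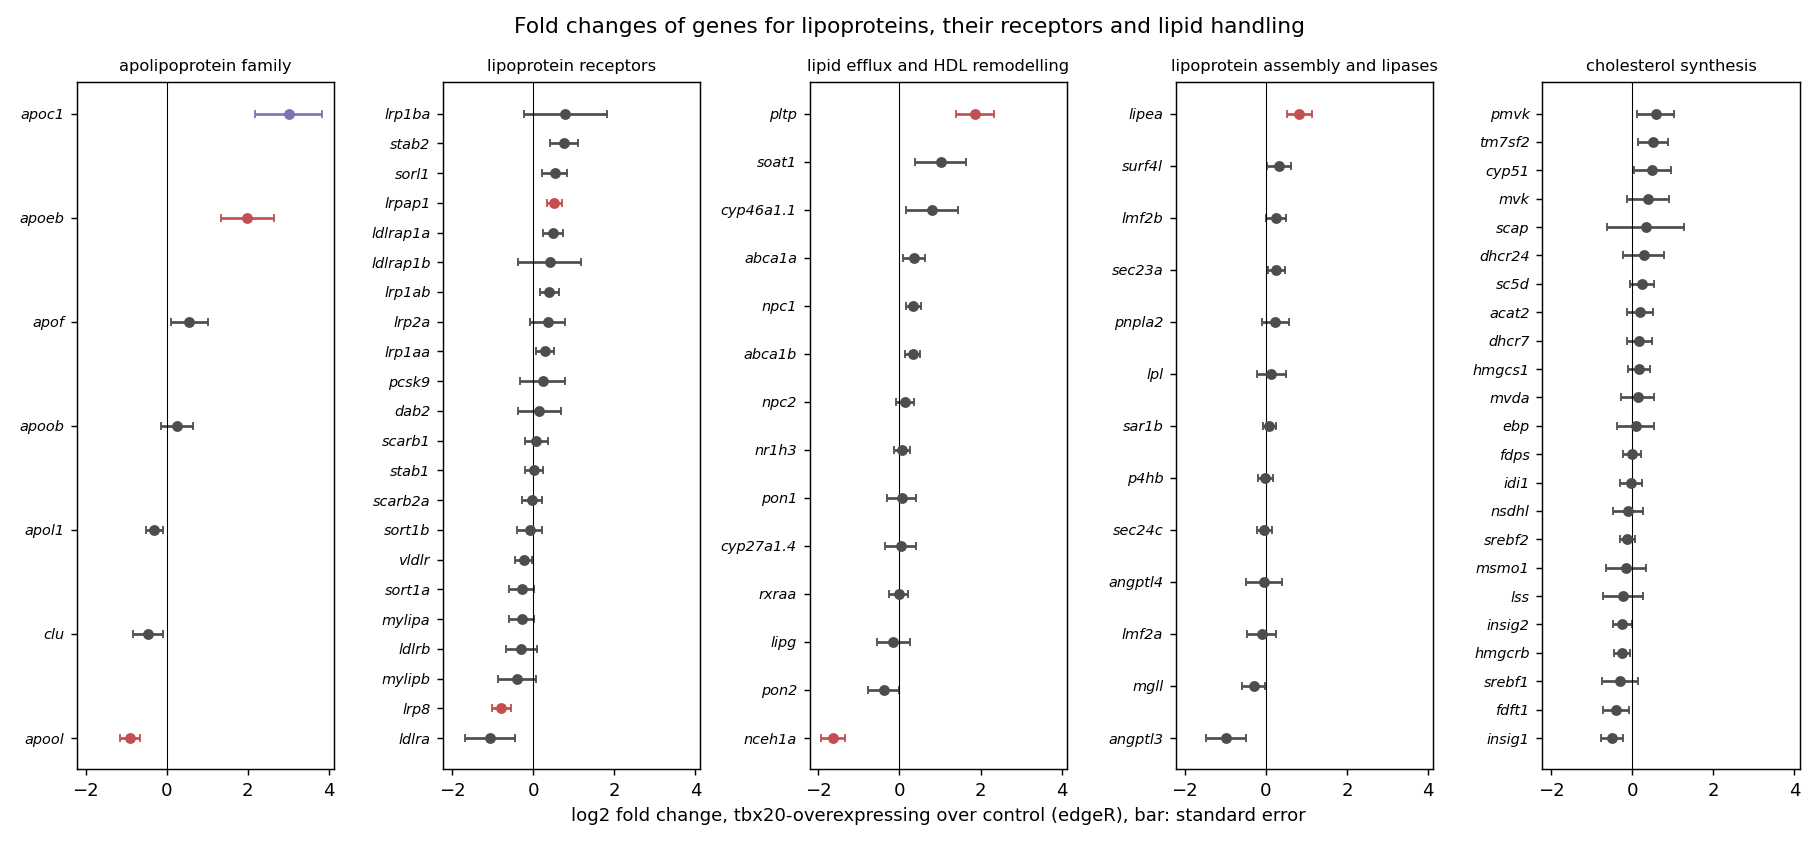
Log2 fold change (horizontal axis, tbx20-overexpressing over control, with the standard error as the bar) of every tested gene in 5 lists, 1 panel for each; red points pass an unadjusted p under 0.05 with an absolute value above 0.5, and apoc1 is purple because its change selected it. apoeb (1.98) and pltp (1.87) lie furthest right among the red points and nceh1a (-1.63) furthest left, while the 23 genes of cholesterol synthesis hold no red point.

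Because apolipoprotein transcripts are made by particular cell types, marker levels were set beside the 6 genes. The 33 macrophage markers summed to 1758, 2365 and 2567 CPM in control replicates 1, 2 and 3 and to 2292, 2308 and 4061 CPM in tbx20-overexpressing replicates 1, 2 and 3. These groups overlapped. Among tbx20-overexpressing libraries the sum was highest in replicate 3, and apoeb and apoc1 were highest in replicate 2. Among control libraries the sum, apoeb and apoc1 were all highest in replicate 3. Of the markers 5 were called higher (15.2%) and 0 lower, beside 3.27% and 5.56% of all tested genes. Their median log2 fold change was 0.49. mpeg1.1, a macrophage perforin gene, gave 0.51 (SE 0.34, edgeR adjusted p = 0.745), and csf1rb, a receptor for the macrophage growth factor, 0.71 (SE 0.27, edgeR adjusted p = 0.46). With the replicate block 12 of the 33 were called higher, beside 6.05% of all tested genes. By the same fit 1 of the 33 had an edgeR adjusted p under 0.05, beside 0.536% of all tested genes. The part of macrophage content in the levels of apoc1 and apoeb was not tested.

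The 20 epicardium and fibroblast markers summed to 13924, 18877 and 14532 CPM in control against 19831, 26157 and 22037 CPM in tbx20-overexpressing libraries, without overlap and with tbx20-overexpressing replicate 2 highest. Of these 4 were called higher (20%) and 0 lower, beside 3.27% and 5.56% of all tested genes, with a median of 0.47. With the replicate block 7 were called higher, beside 6.05% of all tested genes. By the same fit 1 had an edgeR adjusted p under 0.05, beside 0.536% of all tested genes. This marker list includes aldh1a2, which the study uses as an endocardial marker. The 18 cardiomyocyte markers summed to 102941, 148610 and 91437 CPM in control against 91561, 73829 and 55764 CPM in tbx20-overexpressing libraries, and the sums overlapped narrowly. Of these 0 were called higher and 5 lower (27.8%), and 8 lower with the replicate block. Over all tested genes 5.56% were called lower, and 8.06% with the block. Control replicate 2, where apoeb was lowest and apoc1 had no counts, held the highest cardiomyocyte sum. It also held the highest epicardium and fibroblast sum of the control libraries. The lowest cardiomyocyte sum was that of tbx20-overexpressing replicate 3, while apoeb and apoc1 were highest in tbx20-overexpressing replicate 2. Of the 15 endothelial and endocardial markers 0 were called higher and 3 lower (20%), and 4 lower with the block. These stand beside the same 5.56% and 8.06% of all tested genes. The part of these shifts in the apolipoprotein levels was not tested either.

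**Figure D5:**
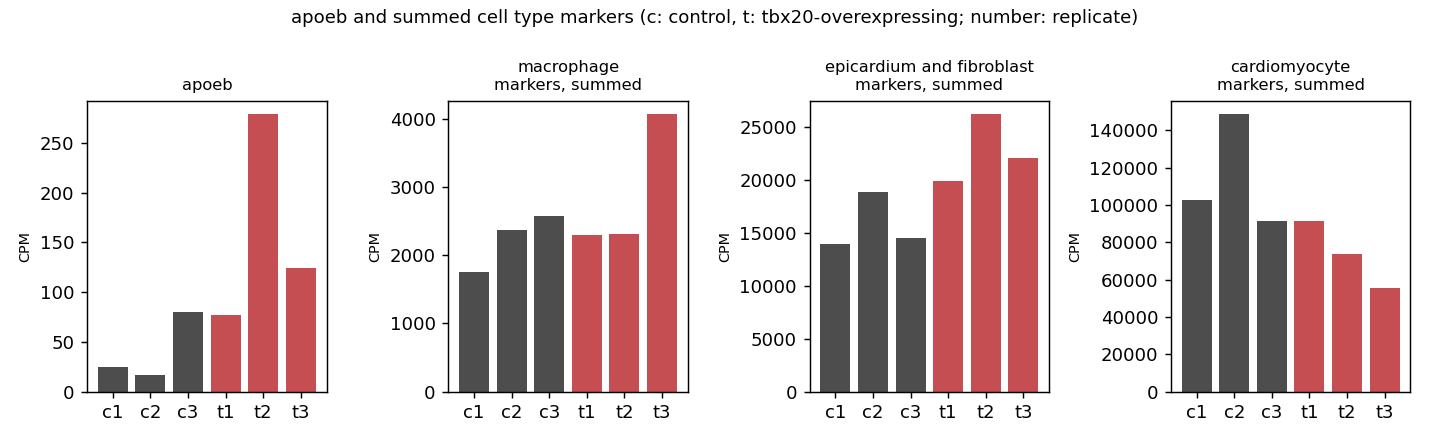
CPM (vertical axes, from 0) of apoeb and of summed macrophage, epicardium and fibroblast, and cardiomyocyte markers in control (c, grey) and tbx20-overexpressing (t, red) libraries, with the replicate number; each bar is 1 library. Among tbx20-overexpressing libraries, apoeb and the epicardium and fibroblast sum (26157) are highest in replicate 2, and the macrophage sum (4061) in replicate 3. Among control libraries, apoeb and the macrophage sum (2567) are highest in replicate 3. The control epicardium and fibroblast sum is highest in replicate 2 (18877), where apoeb is lowest.

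Most marker rows of liver and intestine, the main sources of plasma apolipoproteins, had few counts. A contribution of either organ was not tested. Of 38 liver marker rows 8 were tested, 21 had at most 12 counts in all and 5 had none. Of the tested rows 1 was called higher and 1 lower (12.5% each, beside 3.27% and 5.56% of all tested genes). fabp10a, the liver fatty acid binding protein gene, had 2, 1 and 4 counts in control against 1, 9 and 5 in tbx20-overexpressing libraries, and ttr had 2 counts in total. tfa and rbp4 made up most of the liver sum, which ran from 552 to 1046 CPM in control and from 630 to 749 CPM in tbx20-overexpressing libraries. tfa was abundant, with 274, 475 and 317 CPM in control replicates 1, 2 and 3. Its levels in tbx20-overexpressing replicates 1, 2 and 3 were 310, 277 and 416 CPM. Of 14 intestine rows 3 were tested with 1 called higher, and fabp1b.1 had 0 counts. The adipocyte list includes lepb, which the study uses as a marker of endocardium activated by injury. Of the adipocyte markers 6 of 10 were tested with 0 called higher and 1 lower, or 2 higher and 1 lower with the replicate block. Their median log2 fold change was 0.39. Over all tested genes 3.27% were called higher and 5.56% lower, and 6.05% and 8.06% with the block. Of the 11 erythrocyte and 3 tested skin markers edgeR called 0 in either direction, with 0 at an unadjusted p under 0.05, while the block called 1 erythrocyte marker higher.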

How the data were processed

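Libraries of poly(A) RNA were trimmed with Trimmomatic 0.30 and aligned with HISAT2 2.0.1 to GRCz10 per the submitters' notes, which also name DESeq. The authors deposited raw counts per gene without normalization, and FPKM values made by the authors from those counts, the exonic length and the library total. FPKM recomputed from the counts matched in 190206 of 190206 cases, within 0.011. All sample columns were mapped.

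The count test was edgeR 4.0.16 in R 4.3.3 (filterByExpr, TMM factors, quasi-likelihood fit, two-sided F test, Benjamini-Hochberg adjustment over 15686 genes), and CPM values use TMM factors (0.748 to 1.31). The standard error is the log2 fold change divided by the square root of F. limma 3.58.1 on log2(FPKM + 1) and log2(FPKM + 0.1) and DESeq2 1.42.0 were alternatives, with other factors, filters, a replicate block and each library left out. The test was checked on simulated data.

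The labels give replicate numbers but the study names no pairing, so the pairs used here rest on correlations within these data. After the group means were subtracted, like-numbered libraries correlated at 0.474, 0.419 and 0.511 across genes, unlike ones at -0.138 or lower. Deviations from a group mean cancel out within the group. Positive like-numbered values therefore tend by themselves to make the unlike ones negative, which adds no separate evidence of pairing. Within each group no libraries were duplicates (chi-square per degree of freedom from 44.8 to 79.2). Libraries of different groups were not compared in this way.

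The members and lists were chosen with earlier results of these data known. Named were the members, the tested apolipoprotein family and called genes of the lipid lists (or the 2 most abundant). Also named were the 5 most alike genes, neighbours within 3 places, some markers of the macrophage, liver and intestine lists, and tbx20.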

Additional observations from a re-analysis of the deposited data

How the results depend on the processing

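Leaving out 1 library gave 1.31 to 2.95 for apoeb on the log2 scale and 2.44 to 3.78 for apoc1, and every other setting gave 1.87 to 2.45 for apoeb and 2.35 to 3.79 for apoc1. A minimum of 10 counts in every library left out apoc1, while apoeb kept its call as the 1 family gene called higher. Reversed values were those of apol1 (0.032 under library totals, then 0.029 and 0.034 under limma), apoob (-0.21 to 0.56) and clu (-0.72 to 0.023) with 1 library left out. The cause was not tested. The ratio tests of apoeb to apoea and apoa1b to apoa1a were not run because a gene of each pair had 0 counts in some library.

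Over all genes, called higher or lower were 949 and 1264 with the replicate block, 267 and 1301 with TMM factors computed without the 20 highest genes, 1843 and 257 with library totals, 816 and 1106 without a filter, 1488 and 262 by limma at a pseudocount of 1, and 1695 and 295 at 0.1. An adjusted p under 0.05 was reached by 84 genes with the replicate block, 32 without a filter, 239 with DESeq2, 3 by limma at a pseudocount of 0.1, and 0 to 2 with 1 library left out.

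With the replicate block, receptors numbered 3 higher and 2 lower and efflux genes 2 higher. Besides these and apof, the block changed no call of a named lipid gene. Without the 20 highest genes in the TMM factors, receptors had 0 higher, and assembly genes 0 higher and 1 lower. Library totals gave 0 family genes lower, 6 receptors higher and 0 lower, 4 efflux and 2 assembly genes higher. Under that scaling 1843 of all 15686 tested genes were called higher and 257 lower, with a median log2 fold change of 0.38. No filter gave 2 receptors higher. limma gave 5 receptors higher and 0 lower, 2 efflux genes and 1 cholesterol gene higher, with 0 family genes lower at a pseudocount of 1 and 2 assembly genes higher at 0.1. Over all 15686 tested genes limma called 1488 higher and 262 lower at a pseudocount of 1, and 1695 and 295 at 0.1. The all-gene counts of the replicate block, the reduced TMM factors and the unfiltered fit are given above. With 1 library left out, family genes called higher ranged from 1 to 2 (a count that includes apoc1, selected on its change, while apoeb was called in 4 of 6 cases), receptors higher from 0 to 2 and lower from 1 to 2, assembly genes from 0 to 1 in either direction, and cholesterol genes lower from 0 to 1. Over all genes the fits with 1 library left out called 428 to 573 higher and 664 to 1016 lower. At these depths the few counts of apoa1a, apoa1b, apoa2 and apoea limit what can be detected.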
